A study of Mus musculus with 18 samples.

Results

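The distal peaks opened in both mutants are 995 ATAC-seq peaks on chromosomes 1 to 19 of the mouse genome GRCm38. ATAC-seq maps open chromatin by where a transposase enters the DNA. CPM is the count of a peak per 1000000 counted reads of its library. A peak was chosen when it reached at least 4 CPM in all 6 libraries of CARM1 knockout and NFIB mutant tumors, stayed under 0.5 CPM in all 3 libraries of TKO tumors, and lay more than 1000 bp from every annotated gene start. The 995 make up 1.09% of the 91065 distal peaks on these chromosomes, and the series holds 111664 peaks in all. The members were chosen by their accessibility in these 9 libraries, so their difference from TKO is given as a description with no test.

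All 3 genotypes carry conditional alleles of Rb1 and Trp53 (p53) and of another retinoblastoma family gene, which is given as Rbl1 in the sample labels and in 1 place of the paper and as Rbl2 elsewhere in the paper. Tumors with these alleles alone are called TKO and serve as the control. CARM1 knockout tumors have a conditional Carm1 allele as well, and NFIB mutant tumors have the germline R388K change, which replaces the arginine of NFIB that CARM1 methylates with lysine. Adenovirus carrying Cre was given into the trachea at 8 weeks of age, and cells were collected 28 weeks later from 3 animals per genotype, for 3 RNA-seq and 3 ATAC-seq libraries each. The animals had a mixed C57BL/6 and FVB129/N background, sex was not considered, and Cre also switched on a tdTomato reporter used for sorting. The labels call the material small cell lung cancer cells, while the paper also writes of tumor biopsies and of cell lines, so the exact source of the cells is not settled. Between 26917178 and 47653979 reads per ATAC-seq library were counted on peaks, and between 15848866 and 20915057 per RNA-seq library on genes. A count of 3 was taken as the floor of detection, which is 0.0630 to 0.111 CPM in ATAC-seq. Floors and tests cover counting error and the spread between these libraries only, since reads without molecular identifiers are not independent molecules.

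Distal regulatory elements such as enhancers lie away from gene starts, become accessible when transcription factors bind them, and differ between cell types more than promoters do. AP-1 factors, which are dimers of FOS and JUN proteins, bind many elements of mesenchymal and stimulated cells together with TEAD factors, the DNA-binding partners of YAP and TAZ, and with RUNX factors. Small cell lung cancer cells of the classical type depend instead on neuroendocrine regulators such as NEUROD1.

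The central 300 bases of 10 members serve as examples of matches in such peaks. They are shown because they belong to the most accessible members or to the leading members of genes with many members or large rises, and because they display each kind of match described further on. Sequences are given 5′ to 3′ on the + strand of GRCm38 in lower case. Capitals mark matches to AP-1 (TGANTCA), TEAD (GGAATG) and RUNX (TGTGGT) motifs on either strand, so that the reverse complements CATTCC and ACCACA are capitals too. Each line is named after the nearest protein-coding gene. Of 19 leading members outside exons, with 1 chromosome left out of the search, 6 held an AP-1 match, 4 a TEAD match, 8 a RUNX match and 5 none. The 10 shown include all 6 with an AP-1 match and none of the 5 without a match, so they do not give the shares.
1700012B07Rik, chr11:109817179-109817478: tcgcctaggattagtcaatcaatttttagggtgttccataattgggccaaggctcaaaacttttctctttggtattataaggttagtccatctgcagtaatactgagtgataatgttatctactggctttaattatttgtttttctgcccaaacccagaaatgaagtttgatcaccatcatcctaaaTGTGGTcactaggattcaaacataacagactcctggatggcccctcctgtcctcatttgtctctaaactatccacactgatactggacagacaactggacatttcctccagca
Slit3, chr11:35065955-35066254: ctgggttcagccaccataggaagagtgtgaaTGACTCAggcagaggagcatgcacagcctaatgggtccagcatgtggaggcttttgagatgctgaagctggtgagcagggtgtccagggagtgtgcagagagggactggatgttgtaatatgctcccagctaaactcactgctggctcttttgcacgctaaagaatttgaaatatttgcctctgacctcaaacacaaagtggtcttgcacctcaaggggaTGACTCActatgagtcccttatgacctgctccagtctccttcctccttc
Nt5e, chr9:88092059-88092358: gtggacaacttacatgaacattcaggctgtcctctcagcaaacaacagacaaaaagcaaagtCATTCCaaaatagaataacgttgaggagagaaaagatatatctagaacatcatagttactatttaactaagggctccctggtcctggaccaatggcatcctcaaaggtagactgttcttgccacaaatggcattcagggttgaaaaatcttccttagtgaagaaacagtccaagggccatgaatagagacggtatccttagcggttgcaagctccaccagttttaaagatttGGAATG
Gpd2, chr2:57353844-57354143: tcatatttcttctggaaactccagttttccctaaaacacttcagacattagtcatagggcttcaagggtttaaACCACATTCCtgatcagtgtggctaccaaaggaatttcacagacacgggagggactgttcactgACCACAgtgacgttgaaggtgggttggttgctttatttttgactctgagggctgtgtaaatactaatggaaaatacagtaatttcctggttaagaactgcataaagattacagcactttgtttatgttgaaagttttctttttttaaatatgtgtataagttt
Nudt7, chr8:114050492-114050791: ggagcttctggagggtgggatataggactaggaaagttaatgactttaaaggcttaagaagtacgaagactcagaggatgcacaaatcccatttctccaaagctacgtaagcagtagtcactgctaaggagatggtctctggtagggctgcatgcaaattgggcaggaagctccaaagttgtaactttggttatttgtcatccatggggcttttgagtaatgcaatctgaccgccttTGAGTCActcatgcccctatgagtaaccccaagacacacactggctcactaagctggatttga
Myc, chr15:61608919-61609218: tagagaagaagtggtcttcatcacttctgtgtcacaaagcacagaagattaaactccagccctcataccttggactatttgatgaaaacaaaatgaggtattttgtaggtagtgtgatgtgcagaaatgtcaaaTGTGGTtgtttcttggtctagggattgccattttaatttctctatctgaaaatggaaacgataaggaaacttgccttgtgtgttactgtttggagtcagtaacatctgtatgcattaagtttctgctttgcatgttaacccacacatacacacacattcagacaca
Gm5129, chr5:29842548-29842847: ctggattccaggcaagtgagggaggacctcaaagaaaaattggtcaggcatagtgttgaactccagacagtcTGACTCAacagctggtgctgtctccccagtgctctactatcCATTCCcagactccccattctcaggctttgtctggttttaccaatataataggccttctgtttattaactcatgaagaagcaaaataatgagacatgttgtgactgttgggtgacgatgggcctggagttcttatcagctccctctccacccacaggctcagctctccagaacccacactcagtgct
Thbs1, chr2:117959336-117959635: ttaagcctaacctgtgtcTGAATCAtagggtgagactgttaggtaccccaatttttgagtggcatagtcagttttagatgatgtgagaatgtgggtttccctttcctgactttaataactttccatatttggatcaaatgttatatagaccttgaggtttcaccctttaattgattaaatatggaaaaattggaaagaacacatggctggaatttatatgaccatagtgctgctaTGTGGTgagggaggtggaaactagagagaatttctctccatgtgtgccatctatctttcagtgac
Serpinb2, chr1:107506053-107506352: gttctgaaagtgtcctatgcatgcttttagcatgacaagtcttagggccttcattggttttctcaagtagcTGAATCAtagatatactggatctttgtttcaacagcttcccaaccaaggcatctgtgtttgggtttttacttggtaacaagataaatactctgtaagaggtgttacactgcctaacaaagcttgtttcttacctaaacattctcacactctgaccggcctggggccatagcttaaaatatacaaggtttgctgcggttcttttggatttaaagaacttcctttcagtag
Tmem45a, chr16:56853156-56853455: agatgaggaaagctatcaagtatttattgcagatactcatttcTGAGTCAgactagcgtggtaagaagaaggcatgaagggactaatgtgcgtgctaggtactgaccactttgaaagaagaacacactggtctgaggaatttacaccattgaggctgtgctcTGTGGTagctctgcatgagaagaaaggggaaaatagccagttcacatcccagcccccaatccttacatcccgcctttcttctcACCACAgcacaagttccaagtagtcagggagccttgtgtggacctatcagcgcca
The 1700012B07Rik and Gpd2 sequences lie in introns of those genes, the Tmem45a sequence in an intron of Tmem45a, the Myc sequence in an intron of the long noncoding gene D030024E09Rik and the Thbs1 sequence in an intron of the noncoding gene Gm13986. The other 5 are intergenic. In the Gpd2 sequence a RUNX match and the TEAD match share 2 bases, so they appear as 1 run of capitals.

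The RNA of the same genotypes bears on what cells these were. RNA-seq CPM here are scaled with edgeR's TMM factors. Summed over 12 neuroendocrine markers, TKO libraries had 1817, 1672 and 2227 CPM, CARM1 knockout libraries 59.3, 188 and 1773, and NFIB mutant libraries 42.3, 33.4 and 51.0. Thus the label of small cell lung cancer matched these markers in TKO and in CARM1 knockout 3, and they were low in the other 5 mutant libraries, with Neurod1 at 0 in all 6. By edgeR, 2 of the 12 markers (Neurod1 and Uchl1, 16.7%) fell in CARM1 knockout and 11 (91.7%) in the NFIB mutant. Of all protein-coding genes tested, 16.0 and 21.4% fell, so the count in CARM1 knockout was near that share. Leaving out CARM1 knockout 3 gave 11 in CARM1 knockout, and leaving out any other library of TKO or CARM1 knockout gave 1.

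Markers of fibroblasts moved the opposite way. Their sum over 12 genes was 218, 219 and 173 CPM in TKO, 19363, 15886 and 27924 in CARM1 knockout, and 14154, 11835 and 17342 in NFIB mutant tumors. By edgeR, 10 of the 12 (83.3%) rose in each mutant, beside 21.8 and 23.6% of all protein-coding genes tested, and Fbln1 did so in neither. Col1a1 was the most abundant of them per length in both mutants, at 1169 and 717 CPM per kb, and Fbln1 in TKO at 28.9. Smooth muscle and pericyte markers, 8 genes led by Acta2, summed to 14, 8.66 and 7.44 CPM in TKO, 1129, 522 and 2015 in CARM1 knockout and 162, 162 and 578 in NFIB mutant tumors, and 5 of them rose in the former mutant and 4 in the latter. Fewer cells of a type and less RNA per cell cannot be told apart in bulk libraries. The part of these cell type markers in the accessibility of the members was not tested.

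Other cell types varied from library to library. Leukocyte markers, 12 genes led by the myeloid lysozyme gene Lyz2, summed to 61.1, 5.55 and 4.70 CPM in TKO, 1006, 202 and 2904 in CARM1 knockout and 435, 641 and 28.3 in NFIB mutant tumors, and the lymphocyte marker Cd3e had 3 counts or fewer in all 9 libraries. Of 10 tested, 7 rose in CARM1 knockout and 2 (Csf1r and Cd68) in NFIB mutant tumors. The 7 became 1 without TKO 2, and 3 without TKO 3, CARM1 knockout 1 or CARM1 knockout 3. The 2 became 1 without TKO 2 or TKO 3, 0 without NFIB mutant 2 and 6 without NFIB mutant 1. Lung epithelium markers summed to 635, 402 and 287 CPM in TKO, 4.07, 60.0 and 881 in CARM1 knockout and 2811, 211 and 5.27 in NFIB mutant tumors. Nkx2-1 alone made up 601, 386 and 236 CPM of the TKO sums, and the surfactant gene Sftpb 1737 CPM of the sum in NFIB mutant 1. Endothelium markers summed to at most 17.4 CPM in any library, with Emcn at 0 in all 9, and 4 mesothelium markers in the table summed to at most 94.7.

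Across the 995 members, the median was 0.263, 0.231 and 0.297 CPM in TKO, 8.85, 7.52 and 7.70 in CARM1 knockout, and 7.31, 8.40 and 10.9 in NFIB mutant tumors. The members took 0.0231 to 0.0299% of the counts of a TKO library and 0.817 to 1.22% of those of a mutant library. NFIB mutant 3 stood highest, with the top mutant value at 508 of the 995 members. TKO 3 had the top TKO value at 513 members. A member had a median of 11, 11 and 8 counts in the TKO libraries, so most were above the floor of detection there, and 66, 92 and 105 members had 3 counts or fewer.

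**Figure D1:**
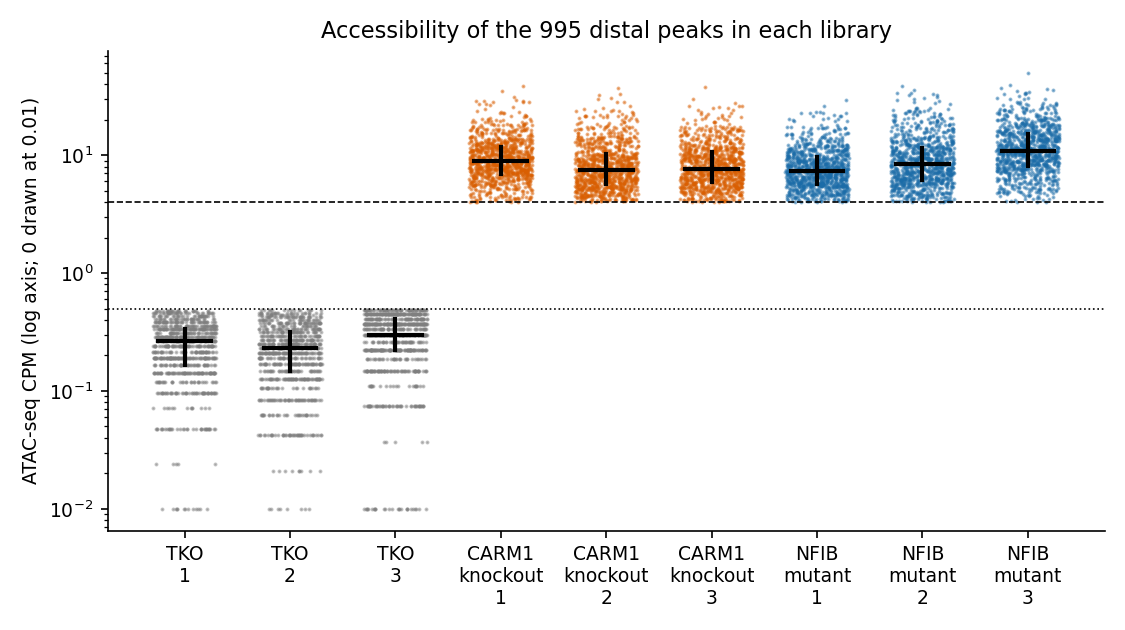
ATAC-seq CPM (vertical, log axis) of each of the 995 members (points) in each of the 9 libraries, with the median (horizontal bar) and the quartiles (vertical bar), and the limits of 4 CPM (dashed) and 0.5 CPM (dotted) that chose them. The gap between the limits is set by the choice. The choice also places the medians of the 6 mutant libraries, which are 7.31 to 10.9 CPM, above the limit of 4.

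The mean over the 6 mutant libraries ran from 4.91 to 37.3 CPM, with a median of 8.48. Divided by the mean over TKO it gave a median ratio of 35.5, with quartiles of 26.4 and 47.8 and a lowest value of 11.7. Within a member, the highest of the 6 mutant libraries was a median of 2.10 times the lowest. For comparison, the 3824 distal peaks with at least 4 CPM in all 9 libraries had medians of 12.7 to 15.4 CPM in TKO and 15.9 to 18.5 in the mutants. These peaks were picked by limits too and are longer, with a median of 1776 bp against 1089 bp, so their levels are not compared with those of the members. The mirrored limits, at least 4 CPM in TKO and under 0.5 in all 6 mutant libraries, were met by 126 distal peaks, here called the closed peaks.

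The most accessible member lies in an intron of 1700012B07Rik (chr11:109816589-109818067). It had 0.334, 0.483 and 0.446 CPM in TKO, 35.1, 32.9 and 37.8 in CARM1 knockout and 29.4, 38.4 and 50.2 in NFIB mutant tumors. Its nearest gene was almost silent, with 1 RNA-seq count in each of CARM1 knockout 2 and 3 and 0 in the other 7 libraries. Next came an intergenic member 75850 bp from Pja2 (chr17:64406778-64408754), with a mean of 25.6 CPM in CARM1 knockout and 31.9 in NFIB mutant against 0.419 in TKO tumors, and one 55120 bp upstream of Slit3 (chr11:35065318-35066891), with 0.143, 0.168 and 0.260 CPM in TKO, 27.2, 30.3 and 25.3 in CARM1 knockout and 22.8, 31.3 and 29.8 in NFIB mutant tumors. The Slit3 member was thus even across the 6 mutant libraries, and its sequence above has 2 AP-1 matches. Members near Nt5e, in an intron of Gpd2 and near Nudt7 completed the 6 highest, with means of 26.3, 26.1 and 25.8 CPM over the mutants. Nt5e encodes the ectoenzyme CD73, and Slit3 a secreted guidance ligand.

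At the limits, peaks that were kept and peaks that were not looked alike. Just inside 4 CPM was a member near Pi15 (chr1:17569864-17570869), with 4.0032 CPM in its lowest mutant library, and a member in an exon of Ccbe1 with the same value. Just outside were peaks in introns of Vmp1 and Fnbp1, each at 3.9988 in NFIB mutant 1. The limit of 0.5 CPM kept members in Creb1 and near Gm9747, at 0.4830 in TKO 3. It left out peaks near Col3a1 (chr1:45354906-45357304) and in Fam117b at 0.5014 in TKO 1, although the Col3a1 peak had 13.524 to 22.138 CPM in the mutants. TKO 3, with the fewest counts, decided most on the low side, and 2237 peaks met the rule without it. With CPM scaled by TMM factors, which were 0.68 to 0.88 in TKO and 1.09 to 1.21 in the mutants, 402 peaks met it, and by totals without the peaks that hold over 0.5% of the counts 628 did.

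The members lay farther from genes than distal peaks in general. Their median distance to the nearest protein-coding start was 66176 bp, against 38333 bp for all distal peaks, 21474 bp for the peaks open in all 9 libraries and 135918 bp for the closed peaks. More than 100 kb from such a start were 37.2% of the members and 25% of all distal peaks, and the longest distance was 1116 kb. By the middle of the peak, 481 members (48.3%) were in introns, 483 (48.5%) between genes and 31 (3.12%) in exons, beside 54.1, 39.4 and 6.54% of all distal peaks. Relative to the nearest coding gene, 480 members were upstream, 303 inside and 212 downstream. Their median length of 1089 bp lay between the 709 bp of all distal peaks and the 1776 bp of peaks open in all libraries, and counts per peak grow with length.

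Some chromosomes and loci held more of them. The share of distal peaks that were members ran from 0.609% on chromosome 12 (26 members) to 2.06% on chromosome 19 (48 members), with chromosome 15 next at 1.56% (67 members). With gaps of up to 50 kb, 223 members (22.4%) fell into 100 clusters. The largest, on chromosome 19, had 5 members over 129 kb (chr19:11431105-11560331) along the genes Ms4a4b, Ms4a6c, Gm8369, Ms4a6b and Ms4a4d, most of which belong to a family of membrane proteins known mostly from immune cells. All 5 were open in every mutant library, from 4.22 CPM at Gm8369 in NFIB mutant 3 to 20 at Ms4a4b in the same library. The RNA of the family differed within the cluster. Ms4a4d had 0.0480, 0 and 0 CPM in TKO, 53.6, 21.9 and 59.9 in CARM1 knockout and 17.1, 72.3 and 40.0 in NFIB mutant tumors, and was called higher by edgeR in both (adjusted p = 7.17e-04 and 5.34e-04). Ms4a6c, chosen for its place in the cluster after its values were seen, reached 7.87 CPM only in CARM1 knockout 3, which had the highest sum of leukocyte markers as well, and was at most 2.47 in the other 8 libraries. It too was called higher by edgeR in both mutants (adjusted p = 0.0454 and 0.0857). Next in size were clusters of 4 at Ptgs2 and at Gm5129, the latter over 39.1 kb.

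Of the motifs counted, AP-1 was found in the largest share of the members, and sequence played no part in their choice. In the central 300 bases, 499 members (50.2%) held TGANTCA, against 26.6% of all distal peaks, 10.9% of the peaks open in all 9 libraries and 12.7% of the closed peaks. There were 391 members with 1 match, 95 with 2 and 13 with 3 or more. The matches gathered at the middle of the peak, with 2.89 per kb in the 50 bp before the centre and 0.261 per kb at 950 to 1000 bp before it. The same positions had 1.24 and 0.298 per kb over all distal peaks, and 0.413 and 0.314 over peaks open in all libraries. Within the range that the limits left, the median CPM in the mutants was 8.67 for 0 matches, 8.28 for 1, 9 for 2 and 8.30 for 3 or more. A match is a stretch of letters and says nothing of which factor was bound.

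**Figure D2:**
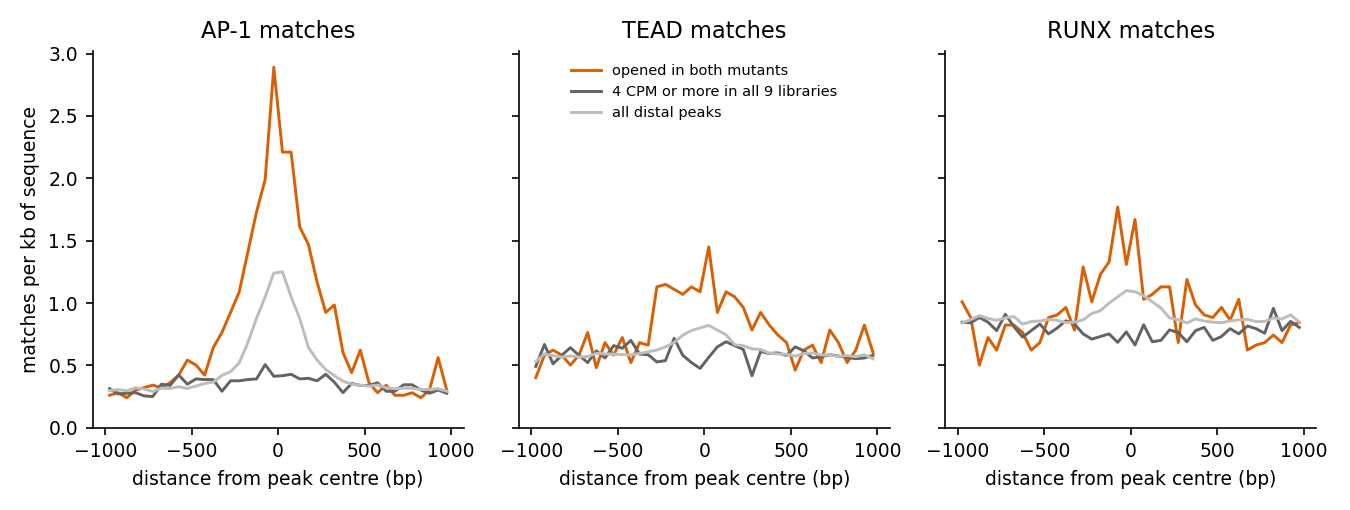
Matches per kb of sequence (vertical) to AP-1 (TGANTCA), TEAD (GGAATG) and RUNX (TGTGGT) motifs by distance from the peak centre in bins of 50 bp (horizontal), for the 995 members, the 3824 distal peaks with 4 CPM or more in all 9 libraries, and all 91065 distal peaks. AP-1 matches of the members rise to 2.89 per kb beside the centre, and those of the peaks open everywhere reach 0.507 at most.

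TEAD and RUNX motifs were also common. GGAATG was found in 284 members (28.5%) against 20.2% of all distal peaks, 15.6% of those open in all libraries and 17.5% of the closed peaks. TGTGGT was found in 334 members (33.6%), against 26.0, 17.7 and 16.7%. The C/EBP motif TTGCNNAA was in 21.4% of the members and 15.4, 10.5 and 13.5% of the other sets. These sets differ in base composition, with a median GC of 43.3% in the central 300 bases of the members, 48.3% in all distal peaks, 54.3% in peaks open in all libraries and 46.8% in closed peaks, and its part in the motif shares was not tested.

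NFI motifs, named after the family of NFIB, pointed to the closed peaks instead. The short motif TTGGCA was in 19.5% of the members, 23.0% of all distal peaks and 40.5% of the closed peaks. Peaks open in all 9 libraries held it less often than the members, at 15.3%. The full palindrome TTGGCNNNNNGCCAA was in 0 members and 0 closed peaks, and in 0.107% of all distal peaks, too rare to compare. SOX (AACAATG) and homeobox (TAATTA) motifs were in 6.53 and 5.93% of the members, 5.58 and 7.01% of all distal peaks and 11.9 and 13.5% of the closed peaks. In peaks open in all libraries they were in 2.72 and 3.77%. GC boxes (GGGCGG), frequent in promoters, were in 3.22% of the members, 7.69% of all distal peaks and 25.7% of the peaks open in all libraries. The forkhead (TGTTTAC), POU octamer (ATGCAAAT), ETS (CCGGAAG), glucocorticoid receptor (GNACANNNTGTNC) and CArG motifs were in 4.52, 3.02, 1.21, 0.402 and 1.61% of the members, beside 5.21, 1.54, 1.74, 0.647 and 1.62% of all distal peaks.

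**Figure D3:**
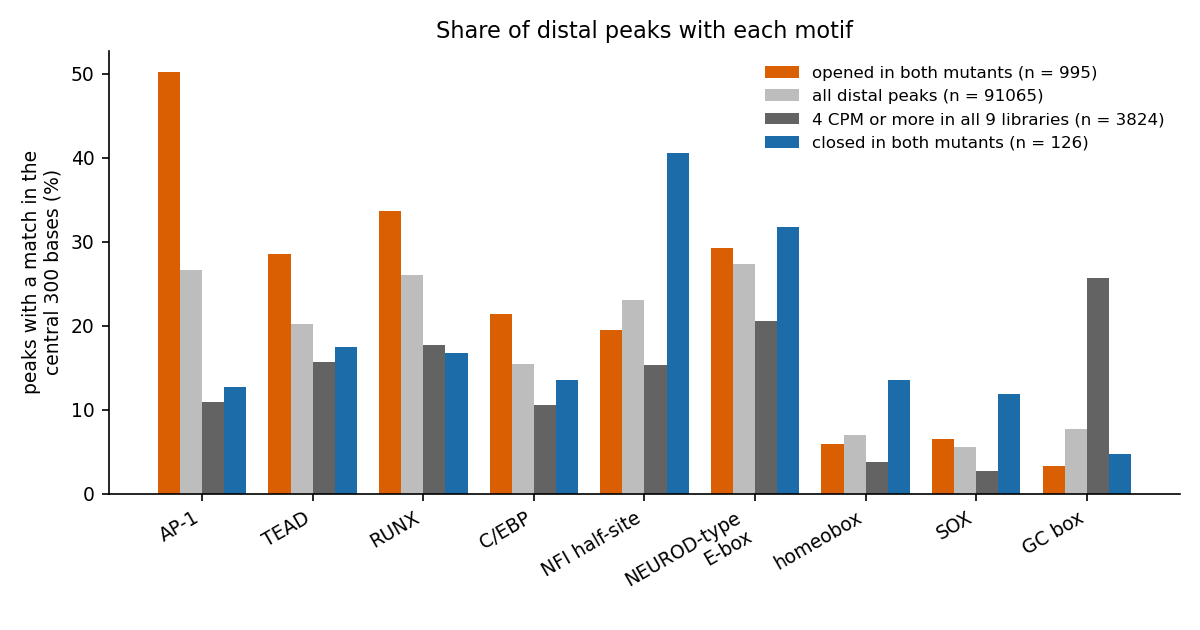
Share of peaks with at least 1 match in the central 300 bases (vertical, percent) for 9 motifs (horizontal) in 4 sets of distal peaks given in the key. AP-1 stands at 50.2% in the members against 26.6% over all distal peaks, and the NFI motif TTGGCA at 40.5% in the closed peaks.

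The mutants were also compared with each other at these peaks. The rule removed peaks that were low in either mutant, so the counts of calls among the members are shaped by the choice and do not measure how alike the mutants are. edgeR called 0 of the 995 members between CARM1 knockout and NFIB mutant tumors, where 0 of all 111116 peaks tested (0%) were called. A call needed an adjusted p under 0.1 and a log2 fold change of 0.5 or more in either direction. At an unadjusted p under 0.05 there were 13 members (1.31%) and 6813 peaks in all (6.13%). The median log2 fold change was -0.11, with quartiles of -0.33 and 0.08 and a range of -1.52 to 0.99, and its median SE was 0.41. Most members leaned to the NFIB mutant, with 643 lower and 352 higher in CARM1 knockout tumors. The NFIB mutant libraries differed among themselves. NFIB mutant 3 had the top mutant value at 508 members, and NFIB mutant 1 had the lowest median of the mutant libraries, at 7.31 CPM. DESeq2 called 2 members and 1060 peaks in all. Those 2, named after their values were seen, were a member in an intron of Gas7 (chr11:67562437-67564381) with 5.80, 5.51 and 11.5 CPM in CARM1 knockout and 13.1, 23.2 and 25.3 in NFIB mutant tumors, and an intergenic member near Mctp2 (chr7:72639558-72640810) with 5.04, 4.79 and 5.45 against 8.10, 20.3 and 15.5. Their groups did not overlap, and DESeq2 gave adjusted p = 0.0420 and 0.0219.

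Genes next to the members rose in both mutants more often than other genes. The nearest protein-coding gene of each member gave 786 neighbouring genes. Of these, 656 passed edgeR's filter on low counts, 127 did not (27 of them at 0 in all 9 libraries) and 3 were not in the table. RNA-seq played no part in choosing the members, although a gene can pass the filter through the genotype where it is high, and 507 of the 656 had at least 10 counts in all 3 TKO libraries. In CARM1 knockout tumors 290 of the 656 (44.2%) were called higher than TKO, beside 21.8% of all protein-coding genes tested, and 43 (6.55%) lower, beside 16.0%. In NFIB mutant tumors 298 (45.4%) were higher, beside 23.6%, and 62 (9.45%) lower, beside 21.4%. The call needed an adjusted p under 0.1 over all genes and a log2 fold change of at least 0.8. The median log2 fold change of the neighbours was 0.90 in CARM1 knockout and 0.98 in the NFIB mutant, and 0.05 and 0.04 over all protein-coding genes. Both comparisons use the same TKO libraries and so are not independent. Without CARM1 knockout 1 the 43 became 28 (4.19%, beside 11.1% of all protein-coding genes). Scaling by library totals moved the median of all genes to -0.22 and -0.29, and there 255 and 256 neighbours (38.9 and 39.0%) were higher, beside 17.0 and 18.2% of all protein-coding genes, and 71 and 86 (10.8 and 13.1%) were lower, beside 22.5 and 28.9%. With 3 libraries against 3, an exact permutation test of a single gene could not give a p under 0.10, so single genes rest on edgeR's shared estimate of spread.

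The share rose with the number of members a gene had. Of tested genes with 1 member, 40.6% were higher in CARM1 knockout and 42.3% in the NFIB mutant. With 2 members it was 53.7 and 52.4% of 82 genes, and with 3 or more 72.5% of 40 genes in each, with median log2 fold changes of 3.44 and 3.35. Distance counted too. Where the nearest member was under 10 kb away, 50 and 51.3% were higher, at 10 to 50 kb 51.3 and 52.5%, at 50 to 100 kb 41.5% in each, at 100 to 250 kb 38.6 and 43.4%, and at 250 kb or more 26.4 and 20.8% of 53 genes. In that last group the median log2 fold changes were still 0.60 and 0.63, and 9.43 and 13.2% were lower. A member inside the gene went with 49.0 and 50.6%, and none inside with 41.3 and 42.3%. An AP-1 match in a member made little difference, with 43.8 and 45.2% against 44.7 and 45.8% without. Genes nearest to any distal peak stood at 23.3 and 25.2%, and those nearest to the closed peaks at 13.2 and 12.1% higher and 35.2 and 48.4% lower. These shares are descriptions, and the differences between them were not tested.

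**Figure D4:**
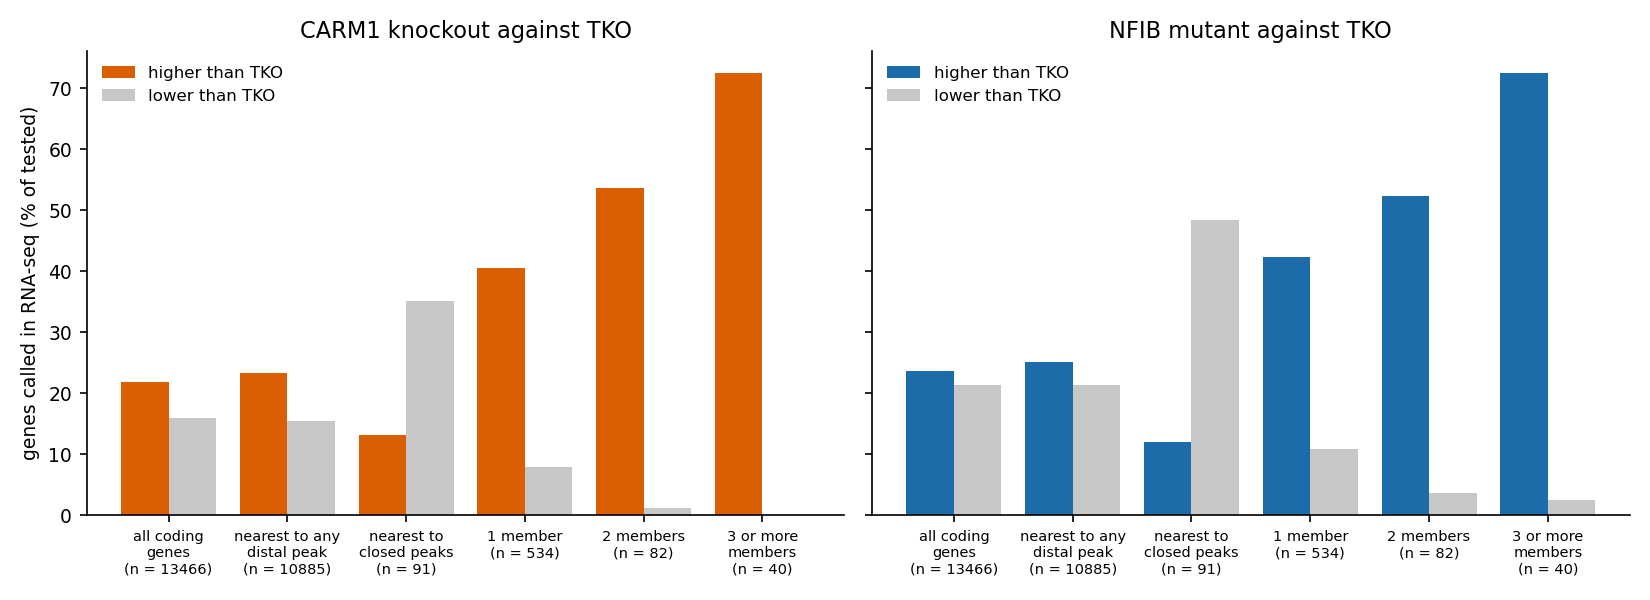
Percent of tested genes (vertical) called higher (colored bars) or lower (grey bars) than TKO by edgeR in CARM1 knockout and NFIB mutant tumors, for all protein-coding genes, genes nearest to any distal peak or to the closed peaks, and genes nearest to 1, 2 or 3 or more members (horizontal, with the number tested). The share called higher goes from 40.6 and 42.3% with 1 member to 72.5% with 3 or more.

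Between the mutants themselves edgeR did not tell the neighbours apart, while DESeq2 called some. edgeR called 0 of 656 between CARM1 knockout and NFIB mutant tumors, with 0% of all protein-coding genes called, and the lowest adjusted p of a neighbour was 0.115, that of Postn. At an unadjusted p under 0.05 there were 54 (8.23%) of the neighbours and 1262 (9.37%) of all protein-coding genes. DESeq2 called 20 of the 756 neighbours that it tested and 479 of all protein-coding genes. How many protein-coding genes it tested is not given, so these counts are not compared. Postn encodes periostin, a matrix protein of fibroblasts. It had 0.288, 0.306 and 0.487 CPM in TKO, 110, 83.2 and 373 in CARM1 knockout and 3.4, 0.986 and 1.91 in NFIB mutant tumors, 3 groups that did not overlap.

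Myc, the proto-oncogene, was the nearest gene of the most members. Its 7 members lie from 376 kb upstream to 905 kb downstream of its start, 2 of them in introns of the noncoding gene Pvt1, with means of 5.46 to 17.8 CPM over the mutants and 0.147 to 0.262 in TKO. Its RNA was at 2.88, 1.44 and 27.9 CPM in TKO, 78.9, 87.2 and 56.1 in CARM1 knockout and 93.6, 92.3 and 44.7 in NFIB mutant tumors. All 6 mutant libraries were above TKO 3, which was far above the other TKO libraries. The mean was 6.89 and 7.15 times that of TKO (log2 fold change 2.78 ± 1.01 and 2.84 ± 1.01 SE, adjusted p = 0.0647 and 0.0534 by edgeR). The call in CARM1 knockout tumors was lost without TKO 1, TKO 2, CARM1 knockout 1 or CARM1 knockout 2 (adjusted p = 0.104 to 0.146), and that in NFIB mutant tumors without TKO 1, NFIB mutant 1 or NFIB mutant 2 (adjusted p = 0.103 to 0.125), all by edgeR. That in CARM1 knockout tumors was also lost with no filter or with only the groups compared in the model (adjusted p = 0.117 and 0.112 by edgeR). The peak at the Myc start was open in TKO as well, at 20.2, 8.75 and 75 CPM, and had 78.0 to 113 in the mutants.

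Ptgs2, the inducible cyclooxygenase of prostaglandin synthesis, had 5 members, 1 at 56.7 kb upstream of its start and 4 at 15.5 to 98.0 kb downstream. Its RNA was at 0.865, 3.06 and 0.443 CPM in TKO, 1658, 732 and 103 in CARM1 knockout and 309, 2117 and 122 in NFIB mutant tumors. The lowest mutant library thus stood far above the highest TKO library, and the spread among mutant libraries was wide. The means were 571 and 583 times that of TKO (log2 fold change 9.15 ± 1.78 and 9.18 ± 1.78 SE, adjusted p = 0.00776 and 0.00610 by edgeR). At the Ptgs2 start itself a peak went the same way, with 0.478, 0.378 and 0.594 CPM in TKO and 19.5 to 37.9 in the mutants.

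Slit3 had 4 members, 1 pair upstream and 1 pair in its introns at 46.1 and 129 kb from its start. Its RNA had 0, 3 and 1 counts in the TKO libraries, and 362, 179 and 57.1 CPM in CARM1 knockout and 645, 933 and 55.9 in NFIB mutant tumors. Replicate 3 was the lowest of each mutant, and still far above TKO (adjusted p = 0.00247 and 0.00143 by edgeR). Grem1, a secreted antagonist of bone morphogenetic proteins, had 4 members, 3 of them in introns of the adjacent gene Fmn1. It had 14.9, 16.1 and 1.29 CPM in TKO, 1691, 842 and 640 in CARM1 knockout and 3047, 1145 and 180 in NFIB mutant tumors, which is 98.3 and 135 times the TKO mean (log2 fold change 6.62 ± 1.36 and 7.08 ± 1.39 SE, adjusted p = 0.00936 and 0.00631 by edgeR). All mutant libraries lay above TKO, while the mutants overlapped with each other.

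Thbs1, which encodes the matrix protein thrombospondin, had 4 members between 126 and 368 kb upstream, 3 of them in introns of Gm13986. It had 137, 5.47 and 2.92 CPM in TKO, 1547, 1244 and 2281 in CARM1 knockout and 1365, 2517 and 701 in NFIB mutant tumors. TKO 1 stood apart from the other TKO libraries, yet below every mutant library (log2 fold change 5.12 ± 1.48 and 4.98 ± 1.47 SE, adjusted p = 0.0314 and 0.0289 by edgeR). Rbpj, the DNA-binding factor of Notch signaling, with 4 members, was expressed in TKO too, at 125, 111 and 97.4 CPM, and rose to 301, 255 and 217 in CARM1 knockout and 208, 486 and 197 in NFIB mutant tumors, 2.32 and 2.67 times the TKO mean (adjusted p = 0.0324 and 0.0160 by edgeR).

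Rnd3, a small GTPase that acts on the actin cytoskeleton, had 4 members and overlapping groups. It had 9.46, 2.45 and 37.0 CPM in TKO, 120, 101 and 46.7 in CARM1 knockout and 61.6, 79.5 and 30.1 in NFIB mutant tumors, with NFIB mutant 3 below TKO 3. edgeR called it in CARM1 knockout (log2 fold change 2.45 ± 0.90 SE, adjusted p = 0.0672) and not in NFIB mutant tumors (1.81 ± 0.88 SE, adjusted p = 0.129). The call was lost without TKO 1, CARM1 knockout 1 or CARM1 knockout 2 (adjusted p = 0.131 to 0.171), and without TKO 3 Rnd3 was also called in NFIB mutant tumors (3.29, adjusted p = 0.0176), all by edgeR. With no filter, a replicate block or only the groups compared, the call in CARM1 knockout was lost as well (adjusted p = 0.107 to 0.136), and DESeq2 called Rnd3 in NFIB mutant tumors (adjusted p = 0.0857). Gm5129, a predicted gene with 4 members 91.1 to 129 kb upstream of its start, had 0 counts in all 9 libraries. A cluster of members is thus no sign by itself that the nearest gene is transcribed.

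Of the genes with 3 or more members, 29 of 40 tested rose in each mutant. Besides those above they include Cd44 (a receptor for hyaluronan), Cdkn2b (an inhibitor of cyclin-dependent kinases), Il1r1 (the interleukin 1 receptor), Inhba (a subunit of activin), Nt5e and Pla2g4a, the phospholipase that supplies arachidonic acid to the cyclooxygenases. These 6 were picked for their known roles after their values were seen. The 1 gene of this kind that fell in NFIB mutant tumors was Runx1t1, a transcriptional corepressor (log2 fold change -1.35, adjusted p = 0.0691 by edgeR), a call that was lost without TKO 1, TKO 2 or any of the 3 NFIB mutant libraries. None fell in CARM1 knockout tumors, and 1 (Sorl1, a sorting receptor) was called lower there without CARM1 knockout 3.

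Collagens and other matrix genes had the most neighbours of the lists counted, which differ in length, and no list was longer. Of 26 such genes 13 were neighbours, with 19 members between them. Among all 20807 protein-coding genes on chromosomes 1 to 19, 786 were neighbours. All 13 rose in CARM1 knockout tumors and 12 in the NFIB mutant, and over the whole list 24 of 26 rose in each mutant, with Eln the 1 that fell, beside 21.8 and 23.6% of all protein-coding genes called higher. Tnc, the matrix glycoprotein tenascin C, had 3 members. Its RNA was at 22.5, 3.06 and 0.886 CPM in TKO, 854, 927 and 188 in CARM1 knockout and 633, 1810 and 675 in NFIB mutant tumors. Neither mutant overlapped with TKO (log2 fold change 6.22 ± 1.36 and 6.88 ± 1.4 SE, adjusted p = 0.0116 and 0.00717 by edgeR). Col3a1, a fibrillar collagen with 2 members, went from 0, 3.98 and 0.709 CPM in TKO to 2775, 3707 and 6655 in CARM1 knockout and 3866, 1200 and 2907 in NFIB mutant tumors. Col5a2 lies next to it and also had 2 members, with means of 0.788 CPM in TKO, 1221 in CARM1 knockout and 935 in the NFIB mutant. Lum, which encodes lumican and has 1 member, was the exception in NFIB mutant tumors, at 0.0608, 24.2 and 0.127 CPM, against 265, 71.1 and 32.6 in CARM1 knockout and 0, 0 and 0.931 in TKO. Its call in CARM1 knockout (adjusted p = 0.0385) was lost without TKO 1, TKO 2 or CARM1 knockout 1 (adjusted p = 0.102 to 0.104), and without NFIB mutant 1 it was called in NFIB mutant tumors (adjusted p = 0.0932), all by edgeR. A replicate block took the call in CARM1 knockout to an adjusted p of 0.101, and DESeq2 called Lum in NFIB mutant tumors (adjusted p = 0.0579). The list shares genes with the fibroblast markers given above, whose summed CPM moved with it, and Lum, Postn, Col1a2 and Col3a1 are the 4 neighbours on both.

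Growth factor and guidance genes gave 8 neighbours of 26, with 14 members. Slit3, Tgfbr2, Slit2, Egfr, Sema3c, Met and Vegfc rose in both mutants, and Igf1 was not called in either, though it was called lower in NFIB mutant tumors without NFIB mutant 1. Tgfbr2, a receptor for transforming growth factor beta, had 2 members and 13.6, 3.76 and 7.22 CPM in TKO, 177, 623 and 179 in CARM1 knockout and 337, 244 and 194 in NFIB mutant tumors. That is 39.8 and 31.5 times the TKO mean (log2 fold change 5.31 ± 0.73 and 4.98 ± 0.72 SE, adjusted p = 0.00232 and 0.00205 by edgeR). Of all protein-coding genes, 21.8 and 23.6% were called higher and 16.0 and 21.4% lower in CARM1 knockout and NFIB mutant tumors. On the whole growth factor and guidance list 15 of 26 rose in each mutant. Kitl fell in CARM1 knockout tumors, and Kitl, Robo1 and Gas6 fell in NFIB mutant tumors (1 gene without TKO 3). These 3 are named after their values were seen. Actin cytoskeleton and adhesion genes rose nearly throughout, 19 of 20 in CARM1 knockout and 18 in the NFIB mutant. Of all protein-coding genes 21.8 and 23.6% did so. Yet on this list only Cald1, which binds actin, was a neighbour, with 1 member. Cald1 was abundant in TKO already, at 284, 371 and 101 CPM, and had 1273, 984 and 780 in CARM1 knockout and 715, 716 and 668 in NFIB mutant tumors (log2 fold change 2.01 ± 0.44 and 1.47 ± 0.44 SE, adjusted p = 0.0119 and 0.0284 by edgeR).

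**Figure D5:**
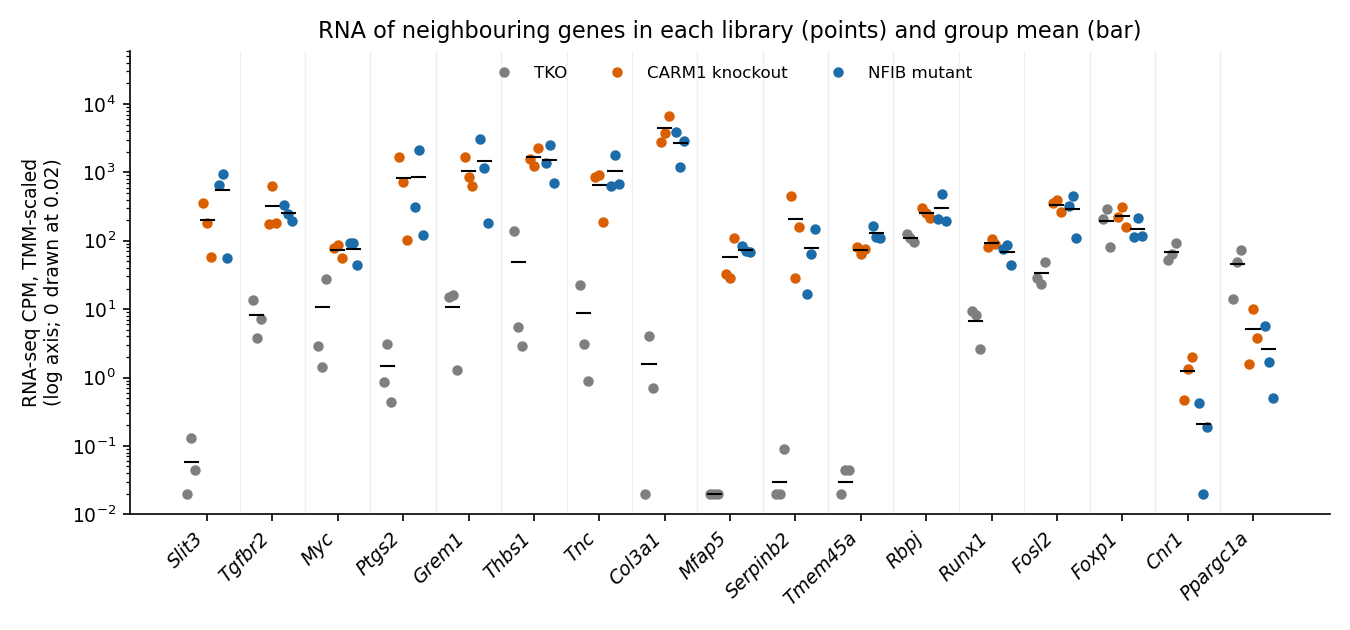
RNA-seq CPM scaled by TMM factors (vertical, log axis, with 0 drawn at 0.02) of neighbouring genes (horizontal) in the 3 libraries of each genotype (points) with the group mean (bar). Mutant libraries lie above all TKO libraries for the genes from Slit3 to Fosl2, overlap with TKO at Foxp1, and lie below at Cnr1 and Ppargc1a.

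Of 196 neighbours called higher in both mutants with all mutant libraries above TKO and a mutant mean of at least 5 log2 CPM, 8 were named by their fitted log2 fold changes, whose order is uncertain where TKO has few or no counts. Mfap5, a microfibril protein of the matrix, had 0 counts in all TKO libraries and 32.7, 28.8 and 110 CPM in CARM1 knockout and 83.1, 71.3 and 68.9 in NFIB mutant tumors. This is at least 396-fold and at least 516-fold higher, against a floor of 3 counts per library. Serpinb2, an inhibitor of plasminogen activators whose member lies 5221 bp upstream, had 0, 0 and 2 counts in TKO and 447, 28.8 and 158 CPM in CARM1 knockout and 16.5, 64.9 and 150 in NFIB mutant tumors. Tmem45a, a membrane protein with 3 members, had 0, 1 and 1 counts in TKO and a narrow range in the mutants, 80.3, 64.0 and 75.3 CPM in CARM1 knockout and 163, 114 and 110 in NFIB mutant tumors (adjusted p = 6.16e-05 and 3.55e-05 by edgeR). Col1a2, Col3a1, Slit3, Ms4a4d and Svep1, an extracellular matrix protein, were the other 5.

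Downward, 25 genes met the same terms. The share of all protein-coding genes that met these terms is not given, so the counts of rises and falls only served to choose the named genes. Cnr1, the cannabinoid receptor of neurons, had 51.8, 64.8 and 91.3 CPM in TKO, 0.475, 1.34 and 1.97 in CARM1 knockout and 0.426, 0 and 0.191 in NFIB mutant tumors, which is 55.0 times lower in CARM1 knockout (log2 fold change -5.77 ± 0.89 SE, adjusted p = 0.00330 by edgeR). NFIB mutant libraries had 7, 0 and 3 counts, too few for a fold (adjusted p = 0.00118 by edgeR). Ina, a neuronal intermediate filament, had 204, 214 and 90.0 CPM in TKO and 0.475, 2.80 and 35.1 in CARM1 knockout, where CARM1 knockout 3 again stood nearest to TKO, and 1.09, 0.247 and 0.191 in NFIB mutant tumors. Its call in CARM1 knockout (adjusted p = 0.0663) was lost without TKO 1, TKO 2 or CARM1 knockout 2 (adjusted p = 0.125 to 0.153), and with no filter, a replicate block or only the groups compared (adjusted p = 0.103 to 0.122), all by edgeR. Ppargc1a, a coactivator of mitochondrial genes, had means of 45.6 CPM in TKO, 5.10 in CARM1 knockout and 2.61 in the NFIB mutant, and its call in CARM1 knockout (adjusted p = 0.0506) was lost without TKO 2, TKO 3, CARM1 knockout 1 or CARM1 knockout 3 (adjusted p = 0.102 to 0.132), all by edgeR. Fbxo32, a ubiquitin ligase subunit, had 64.4, 31.2 and 480 CPM in TKO and means of 14.1 and 9.39 in the mutants. Its call in CARM1 knockout (adjusted p = 0.0392) was lost without TKO 3, CARM1 knockout 1 or CARM1 knockout 2 (adjusted p = 0.110 to 0.131), all by edgeR. Each of the 4 had 1 member. An open member next to a gene therefore did not go with a rise in every case.

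Some genes of the factors whose motifs were counted were called. Over all protein-coding genes, 21.8% were higher and 16.0% lower in CARM1 knockout, and 23.6 and 21.4% in NFIB mutant tumors. Among 10 AP-1 genes, Fosl1, Fosl2, Junb and Batf rose in CARM1 knockout and Fosl1, Fosl2, Jun, Junb and Jund in NFIB mutant tumors. Fosl2 is also a neighbour with 1 member, and had 29.0, 23.7 and 48.7 CPM in TKO, 360, 392 and 261 in CARM1 knockout and 317, 446 and 110 in NFIB mutant tumors (log2 fold change 3.32 ± 0.54 and 3.10 ± 0.53 SE, adjusted p = 0.00388 and 0.00372 by edgeR). Batf had at most 4.78 CPM, and its call (adjusted p = 0.0776) was lost without any of the 3 TKO libraries, CARM1 knockout 1 or CARM1 knockout 3 (adjusted p = 0.127 to 0.178), and with no filter or a replicate block (adjusted p = 0.108 and 0.106), all by edgeR. Of 6 TEAD genes and coactivators 5 rose in each mutant, and Tead1 was not called. Wwtr1, which encodes TAZ, had 7.01, 2.58 and 1.73 CPM in TKO, 135, 198 and 91.6 in CARM1 knockout and 175, 179 and 163 in NFIB mutant tumors, 37.5 and 45.6 times the TKO mean (adjusted p = 0.00110 and 7.89e-04 by edgeR). Runx1 and Runx2 rose in each mutant, and Runx3 and Cbfb, their shared partner subunit, were not called. Runx1 has 1 member and had 9.51, 8.22 and 2.61 CPM in TKO, 82.3, 106 and 90.7 in CARM1 knockout and 75.1, 86.0 and 44.3 in NFIB mutant tumors. C/EBP genes went both ways, with Cebpb and Cebpd higher and Cebpg lower in each mutant.

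Nfib itself, with no member, fell in both mutants. It had 420, 580 and 571 CPM in TKO, 74.5, 216 and 87.2 in CARM1 knockout and 105, 83.3 and 91.4 in NFIB mutant tumors, 4.16 and 5.61 times lower (log2 fold change -2.06 ± 0.40 and -2.49 ± 0.41 SE, adjusted p = 0.00799 and 0.00325 by edgeR). Nfia also fell in CARM1 knockout tumors, a call lost without TKO 1, TKO 2, CARM1 knockout 2 or CARM1 knockout 3. Nfic rose in both, at 98.6, 141 and 202 CPM in TKO and means of 342 and 338 in the mutants, and its call in CARM1 knockout tumors (adjusted p = 0.0369) was lost without TKO 1 or CARM1 knockout 2 (adjusted p = 0.106 and 0.114 by edgeR). Carm1 was not called in any comparison, with 97.7, 103 and 44.5 CPM in TKO, 63.4, 79.1 and 50.8 in CARM1 knockout and 100, 104 and 102 in NFIB mutant tumors (adjusted p = 0.410 and 0.426 against TKO by edgeR). The mutants did not overlap with each other (log2 fold change -0.66 ± 0.31 SE, adjusted p = 0.571 by edgeR). Counts over the whole gene do not show whether its deleted exons were lost, nor can they show the R388K change.

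Other lists of regulators had fewer neighbours. Forkhead genes had 3, Foxp1 with 2 members and Foxo1 and Foxc1 with 1 each. Foxc1 rose in both mutants, while Foxp1 had means of 193 CPM in TKO, 232 in CARM1 knockout and 150 in the NFIB mutant and Foxo1 means of 12.5, 13.7 and 18.1, neither of them called. On that list 4 of 8 rose in CARM1 knockout tumors (Foxc1, Foxc2, Foxf1 and Foxf2) and 3 in NFIB mutant tumors, where Foxa1 was called lower, a call lost when any of 7 libraries (all but CARM1 knockout 1 and 3) was left out. Mesenchymal homeobox and T-box genes had 3 as well, Tbx3 with 2 members and Meox1 and Tbx5 with 1 each. Tbx5, a lung mesenchyme regulator, had 0, 0.175 and 0.0443 CPM in TKO, 23.3, 10.4 and 16.1 in CARM1 knockout and 31.1, 35.1 and 28.8 in NFIB mutant tumors (adjusted p = 0.00109 and 6.60e-04 by edgeR). Tbx3 had 7.98, 7 and 33.7 CPM in TKO, 107, 29.7 and 34.5 in CARM1 knockout and 123, 52.8 and 19.9 in NFIB mutant tumors, with overlap. It was not called (adjusted p = 0.145 and 0.104), and without TKO 3 it was called in both (0.0489 and 0.0364), all by edgeR. It was also called in NFIB mutant tumors without CARM1 knockout 1 or NFIB mutant 3 (0.0936 and 0.0767), and by DESeq2 in both mutants (0.0910 and 0.0571). On this list 6 and 7 of 11 tested rose and 1 fell in each, Tbx2 in CARM1 knockout (not without any of the 3 CARM1 knockout libraries, TKO 1 or TKO 2) and Meis2 in NFIB mutant tumors (not without TKO 1, TKO 2, NFIB mutant 2 or NFIB mutant 3), both named after their values were seen. Prrx1 was the most abundant, at means of 451 and 637 CPM in the mutants and 3.69 in TKO. Mrtfa, the SRF coactivator that responds to actin, has 1 member, and its TKO libraries were alike at 37.0, 36.6 and 36.9 CPM, against 173, 132 and 118 in CARM1 knockout and 127, 100 and 143 in NFIB mutant tumors (log2 fold change 1.94 ± 0.20 and 1.75 ± 0.20 SE, adjusted p = 8.16e-04 and 8.57e-04 by edgeR). Of 7 bHLH genes tested, 1 rose and 2 fell in CARM1 knockout tumors (2 rose without TKO 3 or CARM1 knockout 3), and 2 rose and 3 fell in NFIB mutant tumors. Of 5 steroid receptor and SRF genes 3 rose in each, and all 5 did so without TKO 3. Beside the counts of these lists, 21.8% of all protein-coding genes were higher and 16.0% lower in CARM1 knockout tumors. In NFIB mutant tumors the shares were 23.6 and 21.4%. The lists are short, and their differences from these shares were not tested.

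Neighbours on the lists of other cell types were few. None of the neuroendocrine, leukocyte, smooth muscle or mesothelium markers was a neighbour. With 786 neighbours among 20807 protein-coding genes, lists this short can easily hold none, and this was not tested. Kdr, a receptor of endothelial cells with 1 member, had 1.92, 0.262 and 16.2 CPM in TKO, 4.27, 1.4 and 10.7 in CARM1 knockout and 0, 0.493 and 0.191 in NFIB mutant tumors. It was called lower in NFIB mutant tumors (adjusted p = 0.0620), not so without TKO 3, NFIB mutant 1 or NFIB mutant 3 (adjusted p = 0.124 to 0.255) or with a replicate block (adjusted p = 0.210), all by edgeR. Krt8, an epithelial keratin with 1 member, was high in CARM1 knockout 3 (232 CPM), NFIB mutant 1 (442) and NFIB mutant 2 (81.5) and at most 3.22 in the other 6 libraries. Its call in NFIB mutant tumors (adjusted p = 0.0941) was lost without any TKO library, NFIB mutant 1 or NFIB mutant 2 (adjusted p = 0.125 to 0.209), and by library totals, no filter or a replicate block (adjusted p = 0.102 to 0.160), all by edgeR. DESeq2 called Krt8 in CARM1 knockout tumors too (adjusted p = 0.0124).

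Starts of the neighbouring genes were mostly open already in TKO tumors. Of the 786 neighbours, 642 (81.7%) had a peak within 1000 bp of the start, against 68.1% of all protein-coding genes. Such peaks had at least 4 CPM in all 3 TKO libraries for 70.2% of these neighbours and 80.4% of these genes. They were under 0.5 CPM in all TKO libraries for 18 neighbours (2.80%) and 1.42% of these genes. The median CPM of the neighbours' start peaks was 17.2, 15.3 and 20.7 in TKO, 22.1, 27.4 and 25.6 in CARM1 knockout and 21.5, 27.5 and 26.0 in NFIB mutant tumors, while that of all genes was 19.8, 17.7 and 22.4 in TKO and 19.2 to 24.7 in the mutants. Individual starts differed. The peak at the Thbs1 start had 3.20, 2.60 and 8.69 CPM in TKO and 68.3 to 92.2 in the mutants, and that at the Col3a1 start 0.0955, 0.0420 and 0.186 against 4.74 to 7.33, whereas the Fbxo32 start had means of 32.1, 31.6 and 32.3 CPM in TKO, CARM1 knockout and NFIB mutant tumors although its RNA fell. These values come from the contrast that chose the members and are given without a test.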

How the data were processed

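RNA-seq and ATAC-seq libraries of TKO, CARM1 knockout and NFIB mutant tumors were used, 9 per assay. The column prefixes C, KO and N were read as TKO, CARM1 knockout and NFIB mutant, following names in the paper. For RNA-seq, unnormalized gene counts from HTSeq were deposited, and 5 summary entries, among them reads in no feature, were left out of library sizes. The share of reads in no feature split by genotype, at 12.2, 10.0 and 11.0% for TKO. Every mutant library had less, with 4.89, 4.84 and 5.14% for CARM1 knockout and 5.17, 4.62 and 3.65% for NFIB mutant tumors. The part of this split in the RNA-seq differences from TKO was not tested. The deposited ATAC-seq values are raw counts, made by the authors on 1 merged set of peaks. The submitters' notes name Genrich and featureCounts 1.6.3, the paper names MACS2 and the removal of peaks in regions of altered copy number.

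Members were found from CPM by column sums and GENCODE M21 gene starts. The test was edgeR 4.0.16 (TMM factors, filterByExpr, robust quasi-likelihood, Benjamini-Hochberg over all genes or peaks) in R 4.3.3 with limma 3.58.1, 9 libraries in 1 model, and DESeq2 1.42.0 was the other tool. Motifs were searched on both strands with Python 3.11.15, numpy 2.4.6, pandas 2.3.3 and pysam 0.24.0, intervals used scipy 1.17.1 and figures matplotlib 3.10.9. The fits were tested on simulated data. The members and lists were chosen with earlier results of these data known.

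Named genes were the 8 nearest to the most members. To these were added the 8 largest rises and 4 largest falls called in both mutants without overlap and with a mean of at least 5 log2 CPM in the higher genotype. Neighbours on the lists with at least 3 members, or the 2 with the most, were named too, as were Carm1, Nfib, and of each factor list the most abundant gene and the largest called change. Named peaks were the 6 most accessible members, the leading members of the first 8 genes and 2 peaks on each side of each limit. Alternatives were other scalings, filters, limits, windows and neighbour rules, a replicate block, fits of only the groups compared, and leaving out each library.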

Additional observations from a re-analysis of the deposited data

Results flagged for a closer look

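Outside the set described, 21 peaks on the X chromosome met both CPM limits, 20 of them over 1000 bp from gene starts, near genes such as Col4a6, Gpc4 and Dock11. Their median CPM was 6.71 to 14.3 in the mutant libraries and 0.210 to 0.297 in TKO. They drew attention as a signal in peaks that the choice left out.

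On chromosomes 1 to 19, 66 peaks within 1000 bp of a gene start met both limits, with median CPM of 7.56 to 11.1 in the mutant libraries and 0.231 to 0.297 in TKO. Among the genes next to them are Ptgs2, Thbs1, Col3a1, Inhba and Klf6, which also have members.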

How the results depend on the processing

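The number of distal peaks that met the rule depended on scaling and limits. It was 402 with TMM factors, 628 when peaks with over 0.5% of counts were left out of the totals, 4735 with limits of 3 and 1 CPM and 44 with limits of 6 and 0.25 CPM. It was 1015 by the middle of the peak, 866 at 5000 bp, 971 with all transcript starts, and 1042 to 2237 without 1 library. ATAC-seq scaling by totals put the median difference over all peaks at 0.79 log2 units in each mutant, and TMM at 0.22.

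Neighbouring genes called higher numbered 253 to 320 in CARM1 knockout and 272 to 316 in NFIB mutant tumors without 1 library, and those lower 28 to 45 and 49 to 63. The shares higher were 37.9 to 48.0% and 40.8 to 47.4%, beside 18 to 22.8% and 20.8 to 24.4% of all protein-coding genes. With at least 10 counts in every library they were 181 and 188 higher of 480 tested (37.7 and 39.2%, beside 19.1 and 21.2%). With the nearest gene of any biotype they were 134 and 137 higher and 9 and 16 lower, of 263 tested. With every protein-coding gene whose start was within 100 kb they were 77 and 94 lower, of 970 tested, and 385 and 391 higher. Of all protein-coding genes 16.0 and 21.4% were lower and 21.8 and 23.6% higher. For genes of any biotype no such share is given. Library totals gave 71 lower in CARM1 knockout tumors (10.8%, beside 22.5%). Between the mutants, every alternative run with edgeR gave 0 neighbours and 0 members, also without any 1 library, and DESeq2 gave 20 and 2. The cause was not tested.

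Libraries of the same number were not more alike than others. Their deviations from the group mean correlated at -0.30 to 0.12 in RNA-seq and -0.14 to 0.12 in ATAC-seq, and 3 of 9 RNA-seq and 2 of 9 ATAC-seq libraries correlated best with their own number. A replicate block gave 282 and 288 neighbours higher (43.0 and 43.9%, beside 20.3 and 22.2% of all protein-coding genes), 32 and 54 lower (4.88 and 8.23%, beside 14.5 and 19.5%), 0 between the mutants and 0 members.

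The share of members with a motif grew with the window. In 500 bases it was 63.3% for AP-1, 42.6% for TEAD and 46.7% for RUNX, and over the whole peak 78.9, 63.4 and 69.0%. All distal peaks had 34.8, 29.9 and 38.0% in 500 bases and 43.3, 40.8 and 50.5% over the whole peak. Peaks open in all 9 libraries, which are longer, had 16.7, 24.8 and 27.4%, and 45.5, 62.2 and 67.2% over the whole peak, close to the members for TEAD and RUNX. The 44 members under limits of 6 and 0.25 CPM had AP-1 in 45.5% and TEAD in 20.5%, and 38.6% of them were inside a gene. Of 90 contrasts of named genes with TKO, 70 were called. Some genes were named for being called, so this count is set in part by the choice. Over the alternatives none of the 90 changed sign past the threshold, 11 calls were lost in at least 1 setting and 6 were gained.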
